A study of Mus musculus with 4 samples.

Results

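Megakaryocyte-primed progenitors are described here as KLS cells in which Pf4 RNA was found. KLS cells, sorted from bone marrow as lacking lineage markers while carrying c-Kit and Sca-1, are the population that holds the blood stem cells and the multipotent progenitors. A KLS cell was taken as a member when it held at least 500 genes, at most 10% mitochondrial UMIs (unique molecular identifiers, each standing for 1 captured RNA molecule), a barcode found in neither stromal library, at least 3 Pf4 UMIs and 0 Dntt UMIs. The rule found 283 members among 10351 KLS cells that passed the first 3 conditions: 101 of 3193 in the control library and 182 of 7158 in the STAT5 KO library. The whole series holds 12355 barcodes in 4 libraries. Pf4 and Dntt chose the cells, so their values are given as a description only.

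The study profiled mouse marrow by 10x Chromium single-cell RNA sequencing, version 3 chemistry, with 1 library per group. The control group is labelled Vav1-Cre/+STAT5ab+/+ and the knockout group, called STAT5 KO, Vav1-Cre/+STAT5abfl/fl: both carry the Vav1-Cre transgene, whose recombinase is made in blood cells, and the floxed Stat5a and Stat5b genes are carried by the knockout group alone. The KLS mice were 8 to 12 weeks old. Cells of several mice were pooled (the protocol names 4 mice, without saying whether per group), and 3000 to 6000 cells were targeted per library. No animal can be told from another in the files, so the spread between mice is not measured, no difference between the groups could be tested, and every interval below is a 95% interval of counting error only. The 2 stromal libraries, labelled MSC and taken from mice of 6 to 8 weeks, enter only through their barcodes.

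Megakaryocytes are the large marrow cells that shed platelets. Part of the stem cell pool already transcribes platelet genes such as Vwf and Itga2b, and cells of this kind can reach the megakaryocyte lineage along a short path. Thrombopoietin, the main hormone of the lineage, acts through the kinase Jak2, which phosphorylates STAT5A and STAT5B among other targets. Pf4 encodes platelet factor 4, a chemokine stored in platelet alpha granules, and its gene is widely used as a mark of the lineage. Dntt encodes the terminal transferase of lymphoid progenitors.

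The libraries differed in ways that touch every value below. Control cells were deeper, with a median of 17994 UMIs in members and 15286 in the other KLS cells, against 11132 and 10030.5 in STAT5 KO. The median mitochondrial share in members was 4.21% in control and 2.71% in STAT5 KO. Of the barcodes, 382 in the control library and 284 in the STAT5 KO library also occurred in a stromal library and were left out, and 290 were shared between the KLS libraries, none of them a member. The doublet score marked 1 control and 2 STAT5 KO members. Levels are counts per 1000000 UMIs of the cells named (CPM), from UMIs summed over those cells. Log2 ratios are of CPM plus a pseudocount of 10 CPM, which shrinks the ratios of low genes, and a gene was counted as 2-fold higher or lower at a log2 ratio of 1 or -1 with at least 50 UMIs in the cells compared. Ratios printed with an interval carry no pseudocount.

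The promoters of Pf4 and of the 3 genes with the largest excess in control members (log2 ratio with the pseudocount), Cavin2, Itga2b and Tuba8, are shown because these genes set the members apart most. Each window runs from 250 bases before to 50 bases after the RefSeq start on GRCm38.p6, 5′ to 3′ on the gene's strand. Capitals mark every match, on either strand, to a GATA factor word (AGATAA or AGATAG, or else TGATAA or TGATAG) or an ETS factor word (AGGAAG or CGGAAG). The STAT word TTCNNNGAA was searched as well. Pf4 lies at chr5:90772185-90772484 (+), Cavin2 at chr1:51288876-51289175 (+), Itga2b at chr11:102469834-102470133 (-) and Tuba8 at chr6:121210484-121210783 (+).
Pf4: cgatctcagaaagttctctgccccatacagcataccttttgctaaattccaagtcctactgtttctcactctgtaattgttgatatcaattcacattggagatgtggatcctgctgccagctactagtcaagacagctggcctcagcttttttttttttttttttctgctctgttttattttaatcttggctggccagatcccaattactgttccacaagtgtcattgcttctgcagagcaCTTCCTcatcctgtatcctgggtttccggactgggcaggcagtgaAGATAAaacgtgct
Cavin2: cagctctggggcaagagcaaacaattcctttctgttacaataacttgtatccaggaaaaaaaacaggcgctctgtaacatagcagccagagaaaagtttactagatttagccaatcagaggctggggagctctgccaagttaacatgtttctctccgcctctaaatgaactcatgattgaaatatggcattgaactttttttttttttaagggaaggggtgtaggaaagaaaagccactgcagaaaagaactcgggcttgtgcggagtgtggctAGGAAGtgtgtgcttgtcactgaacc
Itga2b: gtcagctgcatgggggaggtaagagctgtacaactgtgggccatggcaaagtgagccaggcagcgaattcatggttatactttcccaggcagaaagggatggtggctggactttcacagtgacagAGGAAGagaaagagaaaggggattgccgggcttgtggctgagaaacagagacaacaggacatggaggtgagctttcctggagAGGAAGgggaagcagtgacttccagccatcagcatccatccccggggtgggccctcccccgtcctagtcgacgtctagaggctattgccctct
Tuba8: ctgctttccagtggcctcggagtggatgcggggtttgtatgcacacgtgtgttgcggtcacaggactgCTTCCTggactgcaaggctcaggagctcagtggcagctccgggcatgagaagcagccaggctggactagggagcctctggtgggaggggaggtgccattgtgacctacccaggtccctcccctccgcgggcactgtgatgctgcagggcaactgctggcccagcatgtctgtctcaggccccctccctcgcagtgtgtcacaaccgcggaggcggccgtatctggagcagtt
Each of the 4 windows held an ETS word: 2 in Itga2b and 1 in the others. The Pf4 window also held the GATA word AGATAA, beginning 36 bases after the start. None of the 4 held the STAT word in these letters. Of all 32851 RefSeq promoter windows of this length, 46.5% held an ETS word, 29.8% a GATA word and 8.30% the STAT word. Of the 20 leading genes of control members, 16 had windows in the table (20 windows), of which 13 held an ETS word, 3 a GATA word and 1 the STAT word. A match describes letters, not binding.

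Pf4 was spread unevenly over the members. In control members it ran from 3 UMIs through a median of 6 to 345, and the 10 highest cells held 63.8% of all member Pf4 UMIs. In STAT5 KO members the lowest was 3, the median 8 and the highest 431, and the 10 highest cells held 40.8%. The summed Pf4 level was 964 CPM in control members and 1958 CPM in STAT5 KO members, a comparison the rule itself shapes, since 3 UMIs are a larger fraction of a shallow cell. Among the other KLS cells, 12.2% of control and 6.59% of STAT5 KO cells held 1 or 2 Pf4 UMIs, or more beside Dntt. In Dntt cells (at least 3 Dntt UMIs), taken as a lymphoid-primed comparison, 5.93% of control (median 17994 UMIs) and 3.12% of STAT5 KO cells (median 11896.5 UMIs) held a Pf4 UMI. At least 3 Pf4 UMIs were held by 1.60% of control and 0.781% of STAT5 KO Dntt cells. Whether Pf4 in Dntt cells is background was not tested: cells with at least 3 Pf4 and at least 2 Dntt UMIs also held Itga2b, at 114 CPM (control) and 289 CPM (STAT5 KO), above the 31.7 and 32.3 CPM of the other KLS cells, and Vwf, at 47.8 and 111 CPM against 5.35 and 14.5 CPM.

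**Figure D1:**
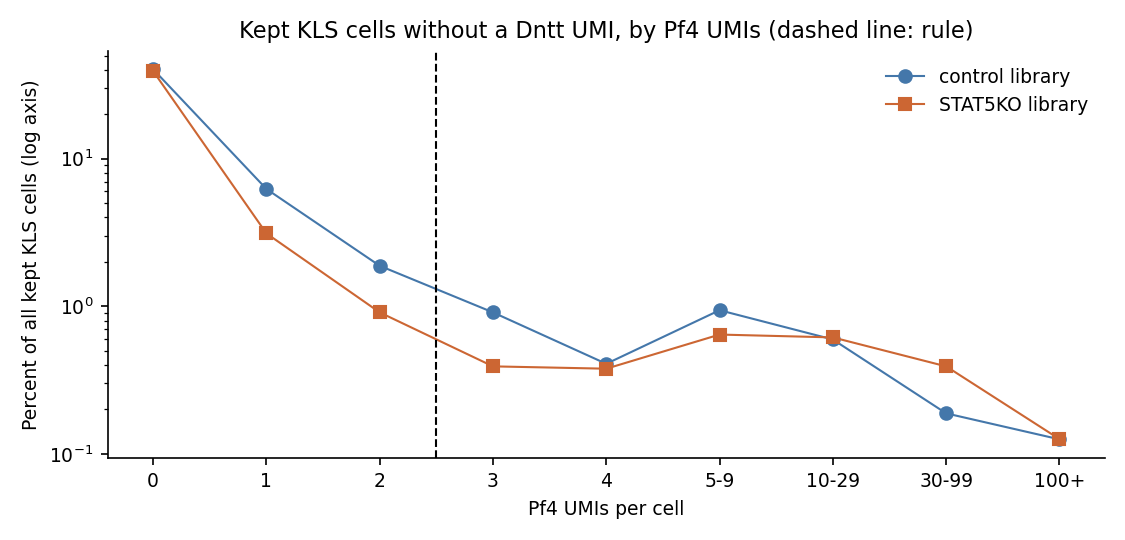
Share of all kept KLS cells (log axis, percent) that held no Dntt UMI and the number of Pf4 UMIs on the x axis, for the control and STAT5 KO libraries; the dashed line is the threshold of the rule. Control lies above STAT5 KO at 1, 2, 3 and 5 to 9 UMIs and narrowly at 4, and STAT5 KO lies above control at 30 to 99 UMIs.

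The share of members depended on sequencing depth. As the rule stands, members made up 3.16% of kept cells in the control library (exact Clopper-Pearson interval 2.58 to 3.83) and 2.54% in the STAT5 KO library (2.19 to 2.93). When every cell was first thinned to 4900 UMIs, the rule found 43 members among 3160 control cells (1.36%, 0.986 to 1.83) and 124 among 6210 STAT5 KO cells (1.997%, 1.66 to 2.38), so the order of the groups turned. Cells with at least 10 Pf4 UMIs and no Dntt made up 0.908% (0.609 to 1.30) in control and 1.13% (0.8996 to 1.40) in STAT5 KO, with overlapping intervals. The highest class, of at least 100 UMIs, held 4 control cells (0.125%) and 9 STAT5 KO cells (0.126%). Which group held more Pf4 cells was therefore not settled by these libraries.

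Just outside the threshold, the 60 control cells with 2 Pf4 UMIs and no Dntt held Itga2b at 102 CPM and Vwf at 7.76 CPM, against 105 and 4.03 CPM in the 29 cells with exactly 3. In STAT5 KO, 65 cells with 2 Pf4 UMIs held Itga2b at 142 and Vwf at 54.8 CPM, against 199 and 53.4 CPM in the 28 cells with 3. The control Vwf values rest on 8 and 2 UMIs. Cavin2 in control stood at 28.1 CPM (18.8 to 40.4) outside and 34.2 CPM (19.9 to 54.8) inside, with overlapping intervals, and in STAT5 KO at 41.4 CPM outside and 125 CPM inside. Mpo was higher outside than inside, at 268 and 54.4 CPM in control and 306 and 103 CPM in STAT5 KO. The Dntt condition removed 29 control and 46 STAT5 KO cells with at least 3 Pf4 UMIs. These were deep cells, with medians of 27897 and 20099 UMIs, and held Itga2b at 127 and 283 CPM.

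The label was checked against markers that the rule did not use. Itga2b, the alpha chain of the platelet fibrinogen receptor, stood at 235 CPM (214 to 258) in control members and 31.7 CPM in the other control KLS cells. In STAT5 KO it stood at 340 CPM (317 to 365) in members and 32.3 CPM in the others. Gata2, a transcription factor of stem cells and early megakaryocytes, stood at 269 against 96.9 CPM in control and 340 against 97.2 CPM in STAT5 KO. Vwf, which encodes the platelet adhesion protein von Willebrand factor, stood at 60.2 against 5.35 CPM in control and 129 against 14.5 CPM in STAT5 KO. All 3 markers were higher in members in both libraries. Without thinning, at least 1 of the 3 was detected in all but 5 control and 3 STAT5 KO members. Of the other cells, 36.8% in control and 46.2% in STAT5 KO held none. After thinning to equal depth, 17.8% of control members held none (10.9 to 26.7). In STAT5 KO members that share was 3.47% (1.28 to 7.40), and in the other cells 60.9% and 62.2%. All 3 were then detected in 3.96% of control members (1.09 to 9.83). In STAT5 KO members all 3 were detected in 19.1% (13.5 to 25.7). At equal depth the markers were thus found less often in control members.

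Of the 20 genes with the largest log2 excess in control members, 14 were on the megakaryocyte lists described in the next paragraph. Cavin2, a caveolar coat protein abundant in platelets, was 15.3-fold higher than in the other control cells (89.8 against 5.88 CPM) and 21.6-fold higher in STAT5 KO (204 against 9.41 CPM). Tuba8, an alpha tubulin of platelets, stood at 86.6 against 8.21 CPM in control and 107 against 7.96 CPM in STAT5 KO. Mfsd2b, the sphingosine-1-phosphate exporter of red cells and platelets, stood at 87.2 against 8.50 and 111 against 10.2 CPM. Ache, acetylcholinesterase, a classical enzyme mark of mouse megakaryocytes, was 27.7-fold higher in control and 30.6-fold higher in STAT5 KO members. The other leading control genes included Gp5, Treml1, Vwf, F2r, F2rl2, Slc14a1, Gp9, Timp3, Rab27b, Gata1, Rap1b, Apoe, Unc119, Cd9 and Itga2b itself.

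The 4 megakaryocyte lists hold 69 genes without Pf4: transcription factors, platelet receptors and surface proteins, granule and secreted proteins, and cytoskeleton and signalling. Over the 59 measured with at least 50 UMIs in control, the median log2 ratio of members over other KLS cells was 0.80, with 55 above 0 and 27 at least 2-fold higher. Over all genes the median was 0.03, and 0.609% were at least 2-fold higher and 0.851% at least 2-fold lower. Intervals lay above 0 for 50 list genes and below for 2, against 14.3% and 10.1% of all genes. In STAT5 KO 60 genes gave a median of 1.22, with 54 above 0 and 33 at least 2-fold higher, beside a median of 0.02 over all genes and 1.21% at least 2-fold higher and 1.16% lower. Intervals there lay above 0 for 54 and below for 3, against 17.3% and 13% of all genes. Platelet receptors led in both libraries, with list medians of 1.42 in control and 1.58 in STAT5 KO. Cells were chosen by a megakaryocyte gene from these same libraries, so these ratios describe the members and are no test of them.

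**Figure D2:**
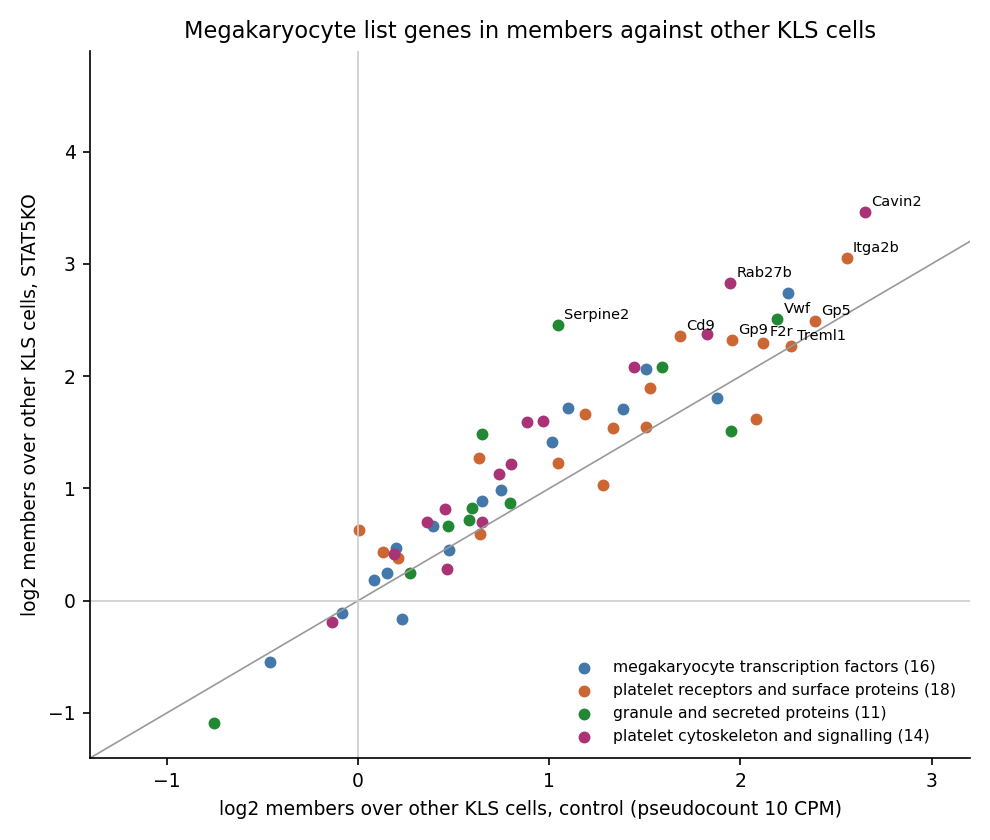
Log2 ratio of members over other KLS cells (pseudocount 10 CPM) in control (x axis) and STAT5 KO (y axis) for the 59 megakaryocyte list genes with at least 50 UMIs in each library, coloured by list; the grey diagonal marks equal ratios. Most points lie right of and above 0, and Serpine2 and Rab27b are the named genes farthest above the diagonal.

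Of the 22 platelet receptor and surface genes, 18 had at least 50 UMIs over the members of both libraries. In each library 2 of the 22 had 0 UMIs in members. Gp5 and Gp9, parts of the von Willebrand factor receptor complex, stood at 74.0 and 71.3 CPM in control members and 83.7 and 86.0 CPM in STAT5 KO members, against 6.00 and 10.9 and 6.68 and 9.22 CPM in the other cells. Gp1bb, another subunit of that complex, stood at 20.6 CPM in control members and 21.04 CPM in STAT5 KO members, and at 0.783 and 0.652 CPM in the other cells. Treml1, a granule membrane receptor, stood at 51.2 and 50.1 CPM against 2.75 and 2.49 CPM. By contrast Gp6, the collagen receptor, and P2ry12, the ADP receptor of platelets, had 0 UMIs in all members. Ppbp, a chemokine gene beside Pf4 that is abundant in platelets, had 9 UMIs in control and 21 in STAT5 KO members. Without thinning, a Ppbp UMI was held by 8.91% of control and 7.69% of STAT5 KO members, against 0.970% and 0.258% of the other cells. Tubb1, the beta tubulin of proplatelets, had 0 and 1 UMI, and the myosin light chain gene Myl9 and the clotting factor gene F13a1 had 0 in both. Gp6, P2ry12, Tubb1, Myl9 and F13a1 were thus at or near 0 in the members, while Ppbp was low.

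Myeloid and lymphoid genes were low in members, a comparison that the condition of 0 Dntt UMIs also shapes. The cells with at least 3 Pf4 UMIs that this condition left out held Flt3, the receptor of lymphoid-primed progenitors, at 159 CPM (control) and 83.7 CPM (STAT5 KO), against 30.6 and 8.95 CPM in members, and Mpo at 216 and 446 CPM against 59.7 and 143 CPM. The 10 genes with the largest deficit in control members included the myeloid granule enzymes Ctsg (1.58 against 139 CPM) and Mpo (59.7 against 564 CPM), the myeloid factor Irf8 (3.17 against 67.5 CPM), the erythroid carbonic anhydrase Car1 (1.58 against 89.4 CPM) and the lymphoid factor Satb1 (26.9 against 178 CPM). Clec12a, Ccl3, Wfdc17 and BC035044 were also among them. The lymphoid-primed list had a median log2 ratio of -0.64 in control (14 genes, 13 below 0) and -0.61 in STAT5 KO (13 genes, 11 below 0). The erythroid list did not share this direction, with medians of -0.04 and 0.04. Within it Car2, a carbonic anhydrase, stood at 917 CPM in control members against 577 CPM in the other cells, and at 587 against 339 CPM in STAT5 KO.

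Markers of cells that a KLS sort could carry over were scarce. The 13 macrophage genes summed to 44.4 CPM in control members and 24.6 CPM in STAT5 KO members, close to the 42.7 and 33.1 CPM of the other KLS cells, with C1qa, C1qb and C1qc at 7, 5 and 2 UMIs in control and 6, 3 and 3 in STAT5 KO. The 12 stromal genes summed to 25.9 CPM in control members and 13.9 CPM in STAT5 KO members, against 39.8 and 32.2 CPM in the other cells. The 6 endothelial genes summed to 6.87 CPM (13 UMIs) and 3.58 CPM (8 UMIs), above the 2.85 and 2.82 CPM of the other cells. Within these lists, Lepr, Pdgfra, Dcn, Col3a1 and the endothelial gene Cdh5 were at 0 in members of both libraries. Free RNA from megakaryocytes or platelets was not measured directly, and its part in the values of the members was not tested.

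Stat5a and Stat5b were lower in STAT5 KO members, but less so than in the other KLS cells. Their summed level was 146 CPM in control members (276 UMIs) and 35.4 CPM in STAT5 KO members (79 UMIs), which is 24.3% of control (18.6 to 31.3). In the other KLS cells the STAT5 KO level was 8.32% of control (7.73 to 8.93), and these intervals do not overlap. A Stat5a or Stat5b UMI was found in 34 of 182 STAT5 KO members (18.7%, 13.3 to 25.1) and 6.65% of the other STAT5 KO cells. At 4900 UMIs per cell the shares were 15.0% of STAT5 KO members (10.1 to 21.2) and 4.51% of the others (4.00 to 5.06), so the gap was present at equal depth. Among other STAT5 KO cells at that depth, those with Hlf, Mecom and Procr all detected, 3 genes of stem cells, gave 15.4% (12.0 to 19.3). Those with both Klf1 and Gata1, of the erythroid path, gave 4.69% (1.74 to 9.92), and the Dntt cells gave 1.07% (0.685 to 1.58). The interval of the members overlapped that of the Hlf, Mecom and Procr cells and lay above that of the Dntt cells. Whether this RNA came from undeleted alleles was not tested.

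Between the genotypes, 19 of 8228 genes were at least 2-fold higher in STAT5 KO members (0.231%) and 16 at least 2-fold lower (0.194%), Stat5a and Stat5b among the latter. The 56 measured genes of the megakaryocyte lists had a median log2 ratio of 0.21, with 38 above 0, 18 below, 4 at least 2-fold higher and none 2-fold lower. The counting interval of the ratio lay above 0 for 24 and below 0 for 6 of them, against 10.6% and 7.92% of all genes. Over all genes the median was 0.02. In the other KLS cells the 63 measured genes of the same lists had a median of -0.02, where 0.0544% of all genes were at least 2-fold higher and 0.0854% lower. There 16 of the 63 intervals lay above 0 and 23 below, against 29.1% and 30.2% of all genes. By list, the medians in members were 0.34 for cytoskeleton and signalling, 0.16 for transcription factors, 0.15 for granule and secreted proteins and 0.11 for receptors.

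Vwf was the marker with the largest difference. It stood at 60.2 CPM (49.7 to 72.3) in control members and 129 CPM (115 to 145) in STAT5 KO members, a log2 ratio of 1.10 (0.79 to 1.43). Per cell it ran from 0 through a median of 0 to 17 UMIs in control and from 0 through 0 to 16 UMIs in STAT5 KO. The per-cell ranges overlapped, and 34 of 101 control and 87 of 182 STAT5 KO members held a UMI. At 4900 UMIs per cell, 13.9% of control members (7.79 to 22.2) and 32.9% of STAT5 KO members (26.0 to 40.5) held a Vwf UMI. The ratio shrank with a stricter choice of cells: among cells with at least 10 Pf4 UMIs the log2 ratio was 0.28, and with the rule applied to thinned cells 0.34 over all their UMIs. Vwf was also higher in the other STAT5 KO cells, at 14.5 against 5.35 CPM.

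The make-up of the members differed between the libraries by stem cell genes. A UMI of 2 or 3 of Hlf, Mecom and Procr was held by 58 of 101 control and 62 of 182 STAT5 KO members. In these cells Vwf stood at 25.7 CPM (17.2 to 37.0) in control members and 130 CPM (109 to 155) in STAT5 KO members. In the 43 and 120 members with 0 or 1 of the 3 genes it stood at 111 CPM (88.6 to 137) and 129 CPM (109 to 150), with overlapping intervals. Itga2b followed the same course, at 150 against 268 CPM in the first set and 360 CPM (319 to 405) against 397 CPM (363 to 433) in the second. Rap1b stood at 393 and 666 CPM in the first set and 942 and 861 CPM in the second. Cavin2 was higher in STAT5 KO in both sets, at 58.6 and 185 CPM and at 136 and 219 CPM, and so was Serpine2, at 7.99 and 64.2 CPM and at 30.01 and 58.3 CPM. Pf4, which chose the cells, stood at 485 CPM in control members and 1588 CPM in STAT5 KO members of the first set. In the second set it stood at 1668 CPM in control members and was higher in STAT5 KO members. Neither the first nor the second sets of the libraries were thus matched in Pf4 level. The part of this make-up and of the Pf4 level in the differences between the libraries was not tested. Median depths were 18946.5 and 13392.5 UMIs in the first set and 17099 and 9753.5 UMIs in the second.

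Among the surface proteins, Selp, the adhesion receptor P-selectin, was 3.66-fold higher in STAT5 KO members (42.5 against 11.6 CPM), the largest ratio of the measured genes of its list. Selp was higher in the other STAT5 KO cells too, at 24.0 against 11.5 CPM. Cd9, a tetraspanin of stem cells and platelets, stood at 249 CPM (227 to 273) in control members and 391 CPM (366 to 418) in STAT5 KO members, while the other cells were at 70.8 and 68.4 CPM. Itgb3, the beta chain that pairs with Itga2b, stood at 32.8 and 56.0 CPM. The level intervals of control and STAT5 KO overlapped for Gp5, Gp9, Gp1ba, Gp1bb, Treml1, F2r, F2rl3, P2ry1, P2rx1, Cd151, Cd63 and Slamf1. For Cd63 the interval of the ratio lay below 0 all the same, at a log2 ratio of -0.18 with the pseudocount. Over the 18 measured genes of the list, 4 ratio intervals lay above 0 and 3 below. F2rl2, a thrombin receptor, was lower in STAT5 KO, at 38.03 CPM (29.8 to 47.9) in control members and 24.6 CPM (18.6 to 32.1) in STAT5 KO members.

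Among granule and secreted proteins, Serpine2, a thrombin inhibitor, stood at 16.9 CPM (11.6 to 23.9) in control members and 60.9 CPM (51.1 to 72.0) in STAT5 KO members, and at 3.04 and 2.91 CPM in the other cells. It was the megakaryocyte list gene whose genotype ratio differed most between members and other cells. Clu, the chaperone clusterin, stood at 11.6 CPM (7.28 to 17.6) and 40.3 CPM (32.4 to 49.5). Angpt1, a growth factor made by stem cells and megakaryocytes, was even, at 360 CPM (333 to 388) and 374 CPM (349 to 400), and so were Mmrn1 and Timp3 within their intervals. Srgn, the proteoglycan core of secretory granules, was lower in STAT5 KO members, at 949 against 1177 CPM, and by a like amount in the other cells (log2 -0.31 and -0.28).

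Of the 14 measured cytoskeletal and signalling genes, 11 were above 0 in STAT5 KO over control members and 3 below, with 9 intervals above 0 and 1 below. Cavin2 stood at 89.8 CPM (76.8 to 104) in control members and 204 CPM (185 to 223) in STAT5 KO members. At 4900 UMIs per cell it was detected in 23.8% and 52.6% of members. Rab27b, a small GTPase of granule secretion, stood at 62.9 and 115 CPM, and at 8.88 and 7.57 CPM in the other cells. Plek, the platelet kinase substrate pleckstrin, stood at 133 and 203 CPM, and Tln1, the integrin activator talin, at 233 and 343 CPM. The 3 below were Pdlim1, at 83.5 CPM (71.0 to 97.5) and 62.7 CPM (52.7 to 74.0), a log2 ratio of -0.36, and, with overlapping intervals, Flna (92.4 and 87.3 CPM) and Tbxas1 (75.0 and 72.5 CPM). Slc14a1, a urea transporter that led the control members but is on no list, stood at 114 and 201 CPM in members and 21.5 and 19.2 CPM in the other cells.

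None of the 16 transcription factors reached a 2-fold difference, and 7 had an interval above 0 and 1 below. Zfpm1, the GATA cofactor FOG1, stood at 216 CPM (196 to 238) in control members and 334 CPM (310 to 358) in STAT5 KO members. Fli1 stood at 241 and 325 CPM, Runx1 at 181 and 236 CPM and Gata2 at 269 and 340 CPM, each with intervals that do not overlap. Gata1, the master factor of both megakaryocytes and red cells, was even at 67.6 CPM (56.4 to 80.4) and 64.5 CPM (54.4 to 75.9). Nfe2, a factor of platelet release, was lower in STAT5 KO members, at 128 against 173 CPM.

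**Figure D3:**
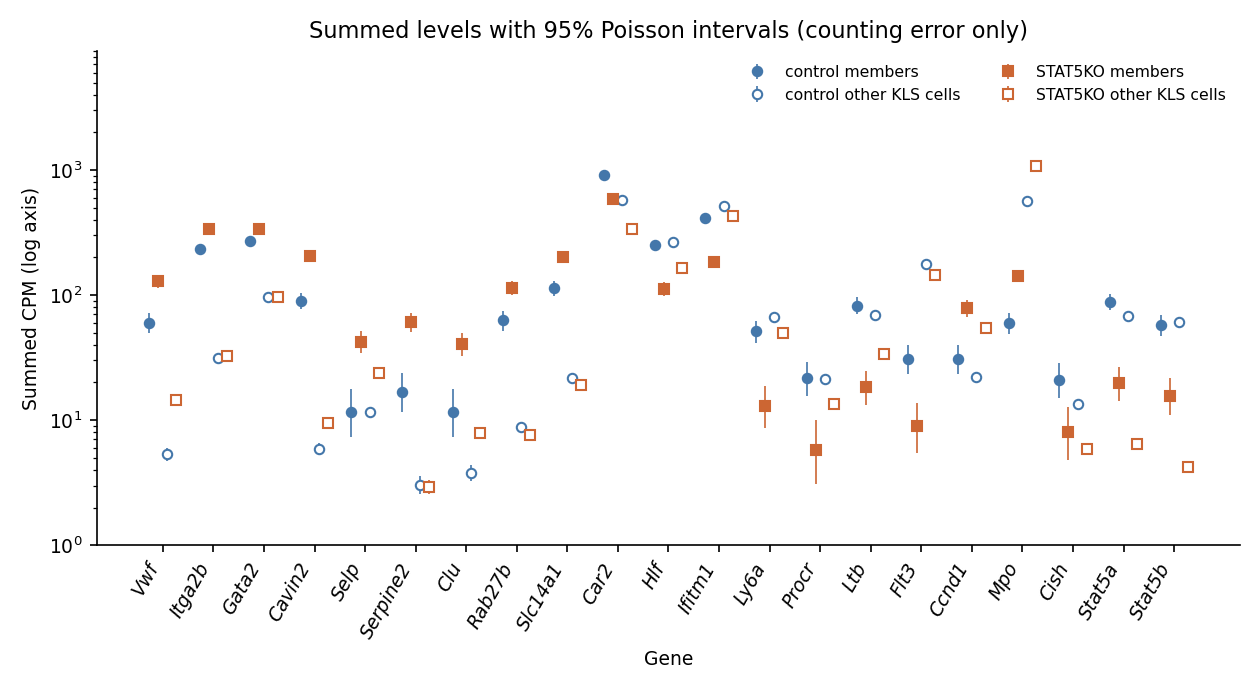
Summed CPM (log axis) of 21 genes in control (blue circles) and STAT5 KO (orange squares), filled for members and open for the other KLS cells, with 95% Poisson intervals. From Vwf to Slc14a1 the STAT5 KO members lie above the control members, and from Car2 to Flt3 the STAT5 KO members lie below the control members.

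Stem cell genes were mostly lower in STAT5 KO members. Of 12 measured list genes, 8 were below 0 and 4 at least 2-fold lower, with a median log2 ratio of -0.26; 0.194% of all genes were that much lower. In the other KLS cells 14 of 16 list genes were below 0 as well, 13 of them with the interval below 0, with a median of -0.24 and none 2-fold lower. The 4 were Hlf, a transcription factor of stem cells (254 to 112 CPM, control to STAT5 KO), Ly6a, which encodes Sca-1 (51.2 to 12.98 CPM), Ifitm1 (416 to 184 CPM) and Procr, the endothelial protein C receptor (21.7 to 5.82 CPM). Ly6a in the other cells was 66.5 and 50.04 CPM, so its log2 ratio was -1.41 in members and -0.35 in the others. At 4900 UMIs per cell, Ly6a was detected in 20.8% of control and 4.62% of STAT5 KO members, and Hlf in 54.5% and 33.5%. Mecom, another stem cell regulator, did not follow: 69.7 CPM (58.3 to 82.7) and 83.7 CPM (72.2 to 96.6). Trpc6 and Ctnnal1, also on the list, were higher in STAT5 KO members, at 55.1 against 31.2 and 29.1 against 14.8 CPM. All cells were sorted for the Sca-1 protein, so Ly6a RNA here was measured within that gate.

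Cells with Hlf, Mecom and Procr all detected made up 17 of 101 control members (16.8%, 10.1 to 25.6) and 7 of 182 STAT5 KO members (3.85%, 1.56 to 7.76). Among the other cells the shares were 17.0% and 6.11%. Cells with both Klf1 and Gata1 made up 15.8% (9.33 to 24.4) of control and 3.30% (1.22 to 7.04) of STAT5 KO members, beside 2.04% and 1.95% of the other cells. The interval of the Klf1 and Gata1 share lay above the value of the other cells in control and held it in STAT5 KO. These shares are not thinned, and the control cells were deeper.

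**Figure D4:**
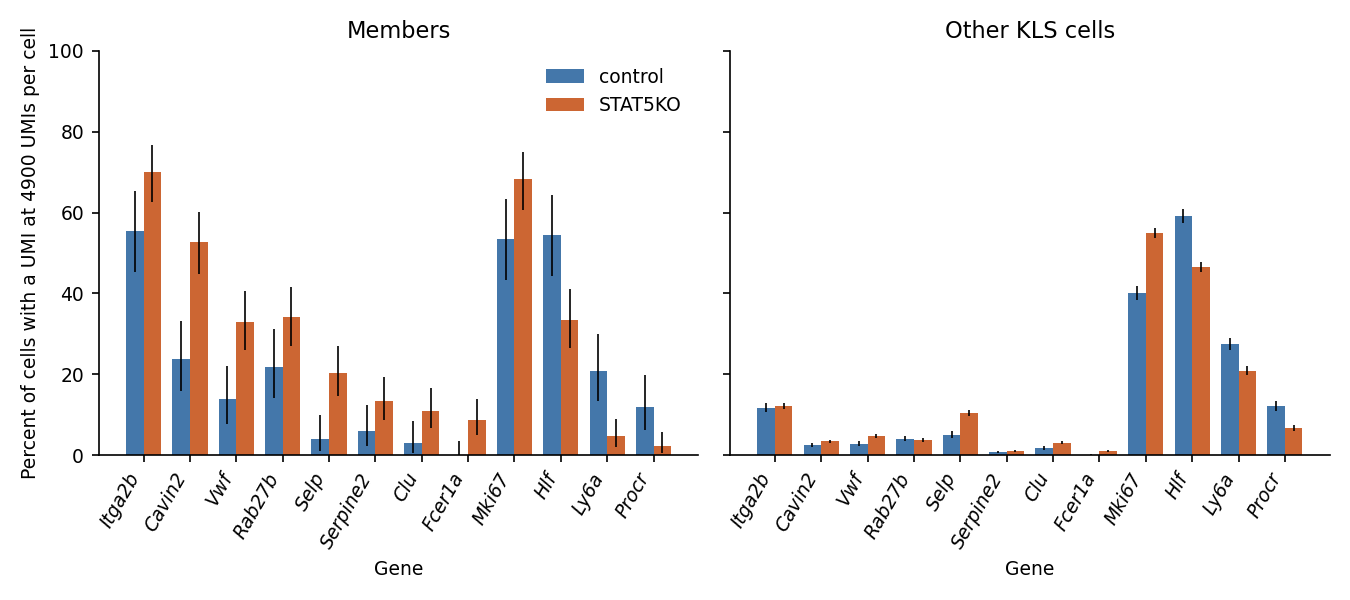
Percent of cells with a UMI of each gene after thinning to 4900 UMIs per cell, in members (left) and other KLS cells (right), control in blue and STAT5 KO in orange, with exact Clopper-Pearson intervals. Vwf, Cavin2 and Selp were detected in more STAT5 KO than control members, and Hlf, Ly6a and Procr in fewer.

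Of the 4 measured lymphoid-primed genes, 2 were at least 2-fold lower in STAT5 KO members (0.194% of all genes) and 1 was at least 2-fold higher (0.231% of all genes). The higher one was Ighm, an immunoglobulin heavy chain, at 7.40 and 251 CPM, with 98.8% of the STAT5 KO UMIs in 1 cell. The summed level of the whole list was 171 CPM in control members (324 UMIs) and 309 CPM in STAT5 KO members (690 UMIs). Of these 690 UMIs, 553 were Ighm UMIs of 1 cell, so the higher sum does not describe the members at large. The other 3 measured genes of the list were below 0. Of the 6 measured myeloid genes, 2 were at least 2-fold higher. Ltb, the cytokine lymphotoxin beta, stood at 82.4 CPM (70.0 to 96.4) in control members and 18.4 CPM (13.2 to 24.9) in STAT5 KO members, with 69.9 and 33.8 CPM in the other cells. Flt3 stood at 30.6 and 8.95 CPM in members and 177 and 144 CPM in the other cells, a gap that the 0-Dntt condition shapes: Pf4 cells with at least 2 Dntt UMIs held it at 193 and 107 CPM. Mpo stood at 59.7 and 143 CPM and Ctsg at 1.58 and 25.5 CPM in members. Both were much higher in the other cells, where STAT5 KO also lay above control. After thinning to equal depth, Mpo was detected in 57.3% of other control cells and 78.4% of other STAT5 KO cells. Ctsg was detected in 17.8% of other control cells and 30.4% of other STAT5 KO cells. The higher values in STAT5 KO were thus not confined to the members. Of the Ctsg UMIs in STAT5 KO members, 28.1% came from 1 cell. The remaining genes 2-fold higher by the naming rule were Mt1, Gm42418, Cuedc1, Hspa1b, Ccnd1 and Cd74, and the remaining genes lower were Gm8797, Rtp4, Gm29666, Marcks and Pbld1. Of the Pbld1 UMIs in control members, 80.0% came from 1 cell.

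In the thrombopoietin pathway, only Stat5a and Stat5b of 13 measured genes reached a 2-fold difference. Jak2, the kinase at its head, stood at 47.0 CPM (37.8 to 57.9) in control members and 45.7 CPM (37.2 to 55.4) in STAT5 KO members. Stat3 was even at 101 and 102 CPM. Ptpn11, the phosphatase SHP2 that relays the signal, was higher, at 60.2 CPM (49.7 to 72.3) and 95.4 CPM (83.0 to 109). Among 10 measured STAT5 target genes, 4 were above 0 and 6 below, with a median of -0.05. Cish, a feedback inhibitor that STAT5 induces, stood at 21.1 CPM (15.1 to 28.8) and 8.06 CPM (4.78 to 12.7). Ccnd1, which encodes cyclin D1, was 2.56-fold higher in STAT5 KO members (78.4 against 30.6 CPM), and 54.2 against 22.1 CPM in the other cells.

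Mitosis genes were higher in STAT5 KO members and S phase genes were not. All 12 mitosis genes were above 0, with a median log2 ratio of 0.34, a lowest value of 0.15 and none at 2-fold. The counting interval of the ratio lay above 0 for 10 of the 12, against 10.6% of all genes. The same list had a median of 0.01 in the other cells, with 6 above and 6 below. Mki67, a general mark of cycling cells, stood at 380 and 542 CPM in members and 308 and 398 CPM in the other cells. Ccnb2, a mitotic cyclin, stood at 130 and 194 CPM in members and at 151 and 133 CPM in the other cells. The 14 S phase genes had a median of -0.05. At 4900 UMIs per cell Mki67 was detected in 53.5% of control and 68.2% of STAT5 KO members, and in 40.1% and 55.0% of the others. The stress and immediate early list moved beside these, with a median of 0.21 in members and 0.16 in the other cells, and its part in the result was not tested.

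Within the members, other platelet genes climbed with the Pf4 UMIs that chose the cells, and the values by Pf4 class are a description. In control, Itga2b went from 126 CPM in the 42 members with 3 or 4 Pf4 UMIs through 189 and 304 (5 to 9 and 10 to 29 UMIs) to 553 CPM in the 10 members with 30 or more. In STAT5 KO the 4 classes held 192, 257, 382 and 506 CPM. Vwf went through 9.56, 23.7, 67.0 and 276 CPM in control and 48.0, 90.7, 152 and 215 CPM in STAT5 KO. In the highest class its intervals overlapped, 216 to 349 CPM for control and 180 to 254 CPM for STAT5 KO. A class of like UMIs is a higher Pf4 level in the shallower STAT5 KO cells, so the classes are not matched between the libraries. Serpine2 stayed low until the highest class, where it reached 71.1 CPM in control members and 177 CPM in STAT5 KO.

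Stem genes ran against this order. Hlf went through 311, 322, 154 and 79.0 CPM in control members and 151, 108, 114 and 78.9 CPM in STAT5 KO members. Mecom went from 98.3 to 19.7 CPM in control and from 114 to 58.4 CPM in STAT5 KO. Gata2 showed little order, at 284 to 221 CPM in control and 343 to 293 CPM in STAT5 KO between the lowest and highest class. The highest control class held 10 cells, and the classes are in UMIs, which deep cells reach at a lower Pf4 level: the median depth was 16502.5 UMIs in the lowest and 25088 in the highest control class, and 9351 and 15500 UMIs in STAT5 KO.

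**Figure D5:**
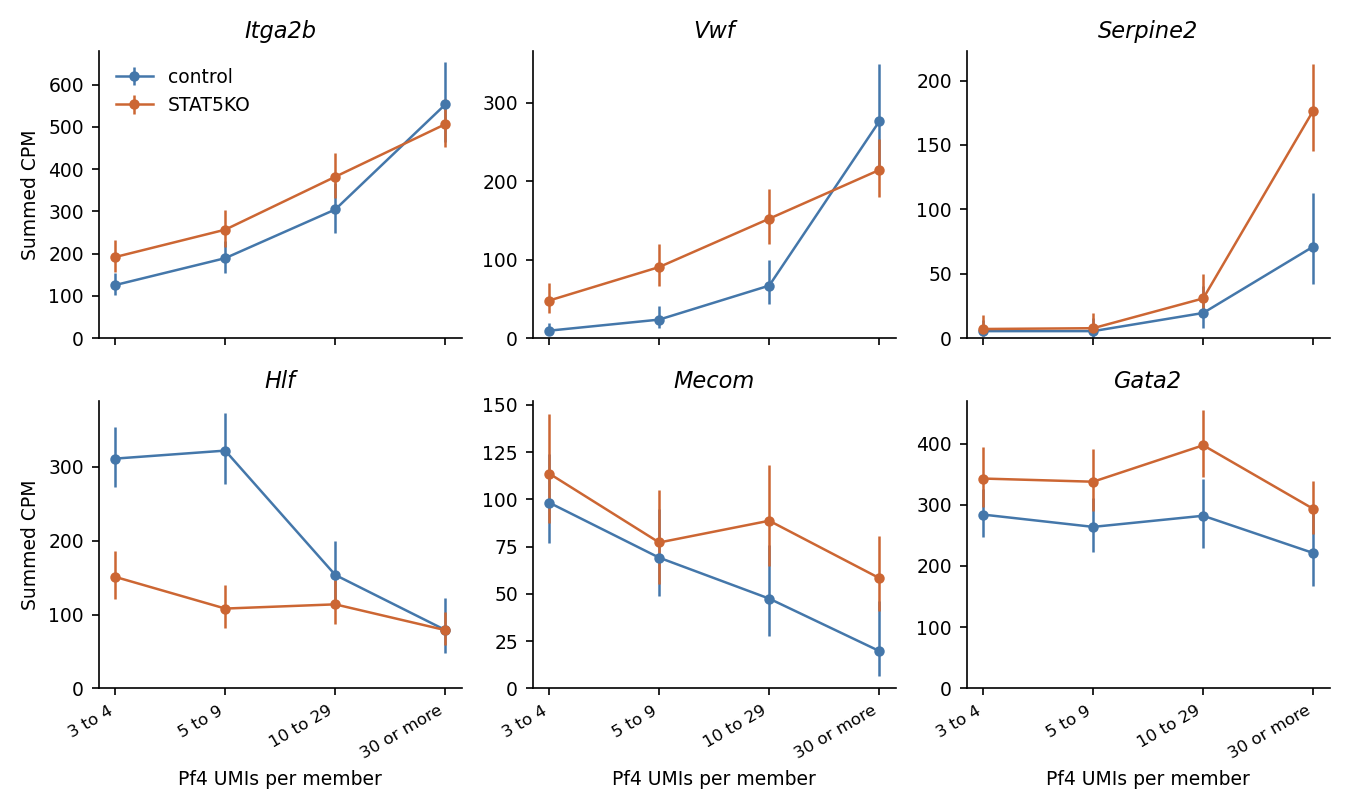
Summed CPM of 6 genes in members grouped by Pf4 UMIs, control in blue and STAT5 KO in orange, with 95% Poisson intervals. Itga2b, Vwf and Serpine2 climb with Pf4 in both libraries, Hlf and Mecom are lower at 30 or more Pf4 UMIs than at 3 to 4, and Gata2 is nearly level.

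The 34 STAT5 KO members with a Stat5a or Stat5b UMI differed from the 148 without one, at median depths of 13291.5 and 10883 UMIs. Cish stood at 24.7 CPM (12.3 to 44.2) in the first and 3.91 CPM (1.57 to 8.06) in the second, beside 21.1 CPM in control members. Clu stood at 112 CPM (83.4 to 148) and 22.4 CPM (16.0 to 30.5), and Vwf at 204 CPM (165 to 251) and 111 CPM (95.8 to 127). Treml1 was the reverse, at 13.5 CPM (4.95 to 29.3) and 59.3 CPM (48.5 to 71.7), and so were Serpine2, at 22.5 and 70.5 CPM, and Mpo, at 8.99 and 177 CPM. Pf4 was 1152 and 2159 CPM. Hlf did not differ, at 117 CPM (87.2 to 153) and 111 CPM (95.8 to 127). In control, the 86 members with a UMI and the 15 without one stood in the opposite order for Mpo, at 66.4 and 8.99 CPM, and for Pf4, at 1020 and 544 CPM. Clu there was 13.2 CPM and 0 UMIs, which allows up to 13.5 CPM, and Cish 20.95 and 22.5 CPM. A cell without a UMI may still have expressed the genes, so the second set is not purely deleted cells.

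2 further differences were chosen after their values were seen. Fcer1a, the alpha chain of the IgE receptor of mast cells and basophils, had 0 UMIs in control members and 43 UMIs in 24 STAT5 KO members (19.3 CPM), at least 12.1-fold higher against a floor of 3 counts over the control group. At 4900 UMIs per cell it was found in 0 of 101 control members, which allows a share of up to 2.97%, and in 8.67% of STAT5 KO members (4.93 to 13.9). The other STAT5 KO cells were also higher, at 0.911% (0.687 to 1.18) against 0.163% of control cells (0.053 to 0.381). Without thinning the shares were 13.2% of STAT5 KO members, and 1.56% and 0.388% of the other cells. Other genes of mast cells and basophils did not accompany it: Cpa3, a mast cell protease, stood at 29.1 and 27.3 CPM, Mcpt8 had 0 and 3 UMIs, and Cma1 and Tpsb2 had 0. In Ms4a2, the receptor's beta chain, 91.7% of 24 control UMIs came from 1 cell. Separately, 1 STAT5 KO member carried plasma cell RNA, with 99.2% of the Jchain and 79.8% of the Cd74 UMIs of all STAT5 KO members. Without it the log2 ratio of Cd74 was -0.54 instead of 1.10.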

How the data were processed

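Single-cell RNA was counted in 4 10x libraries, 1 per group. The deposited files hold raw UMI counts per gene and cell, made with Cell Ranger on GRCm38/mm10 per the submitters' processing notes. The software version in the file headers is 3.1.0. The KLS libraries held 55138419 UMIs in control and 82466835 in STAT5 KO. Counts were summed over members and over other KLS cells, with CPM over all gene UMIs. Intervals are exact Poisson for levels, Clopper-Pearson for shares and conditional binomial for ratios. No differential test was possible with 1 library per group. Shares were also computed after thinning each cell to 4900 UMIs (the 10th percentile of kept cells, rounded down to 100, seed 1), which left out 9 STAT5 KO members and no control member. Doublets were scored with Scrublet in Scanpy 1.11.5 and kept, the highest scores being left out in an alternative. Python 3.11.15, NumPy 2.4.6, SciPy 1.17.1, pandas 2.3.3, R 4.3.3 and edgeR 4.0.16 (TMM scaling in an alternative only) were used, and the sums and intervals were tested on simulated data.

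The members and gene lists were chosen with earlier results of these data known. Named genes were every list gene, the 20 highest and 10 lowest in control members over other KLS cells, the 12 largest differences in each direction between genotypes in members (50 UMIs or more, found in 5% or more of the higher library's members), and the 6 on each side that differed most in that ratio between members and other cells. Pf4, Dntt, mitochondrial, hemoglobin, immunoglobulin and sex-linked marker genes were kept out of the rankings. Promoters were shown for Pf4 and the 3 leading genes. Fcer1a and Jchain were described after their values were seen. Values of a few named genes are not reported here.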

Additional observations from a re-analysis of the deposited data

Results flagged for a closer look

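Of 86 genes looked at, 10 had a STAT5 KO over control ratio of opposite sign in members and in the other KLS cells, with both counting intervals off 0. Of these 86 genes, 29 were named for their STAT5 KO over control ratio or for this very difference, and 3 of the 10 are among them. The same count over all 8228 measured genes was 98, or 1.19%. The genes looked at were chosen with values known, so their count was not compared by a test. The difference itself was not tested, because each group is 1 library. Values are log2 ratios without a pseudocount. Among platelet genes, Rab27b was 0.87 in members and -0.23 in the other cells, and Plek was 0.61 and -0.16. Rap1b, a GTPase of integrin activation, was 0.33 and -0.24, and its sign in members changed under 3 alternatives. Nrgn, neurogranin, was 0.35 and -0.31. Slc14a1 was 0.82 in members and -0.16 in the others, and Trpc6 0.82 and -0.31. Gucy1a1, a subunit of the nitric oxide receptor, was 0.60 and -1.09. The mitotic cyclin Ccnb2 was 0.57 and -0.19. Ccdc61 was 1.40 and -0.26, and Rcc1l ran the other way, at -1.56 and 0.23.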

How the results depend on the processing

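Of the values that answer a comparison, the Stat5a plus Stat5b ratio (log2 -2.39 to -1.89) and the megakaryocyte list median between genotypes (0.09 to 0.29) kept their direction in every alternative that gave a value. The member share did not: STAT5 KO minus control was -0.62 percentage points as reported, -1.59 with at least 2 Pf4 UMIs, 0.223 with at least 10, and 0.636 with the rule on thinned UMIs. Vwf stayed higher in STAT5 KO members, at log2 1.10 as reported, 0.77 with at least 5 Pf4 UMIs, 0.28 with at least 10, 0.71 with thinned UMIs throughout, 0.34 with only the rule thinned, and 1.50 at 200 to 1000 CPM Pf4. The 19 higher and 16 lower genes became 63 and 5 with thinned UMIs, 57 and 59 with a pseudocount of 1 CPM, and 11 and 4 with at least 200 UMIs, and 7 were lower with only the rule thinned. The megakaryocyte median of members over other cells in control was 0.80, and 1.18 with at least 10 Pf4 UMIs, 1.27 with a pseudocount of 1 CPM and 1.09 with only the rule thinned. In STAT5 KO it was 1.22, and 1.72 with that pseudocount and 0.97 at 200 to 1000 CPM Pf4. The cause of these shifts was not tested.

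Of 64 genotype ratios whose counting interval lay off 0, 56 kept their sign in every alternative. Keeping the sign did not mean keeping the size: the lowest log2 ratio was 0.48 for Cavin2 (1.10 as reported) and 0.50 for Serpine2 (1.40). Pbld1 turned to 0.14 (at least 5 Pf4 UMIs), 0.10 (at least 10), 0.83 (thinned), 0.68 (only the rule thinned) and 0.44 (200 to 1000 CPM Pf4). Cd74 turned to -0.61 and -1.399 at 5 and 10 Pf4 UMIs and to -0.54 without the cell with plasma cell RNA, and Jchain to -0.12 at 5. Rap1b turned to -0.13 at 10 Pf4 UMIs, -0.21 thinned and -0.043 with only the rule thinned, and Mef2c to -0.076 at 10. Thinned, Kit turned to 0.21, Apoe to -0.34 and Satb1 to 0.034. The alternatives with only the rule thinned, without the plasma cell RNA, without Stat5 UMIs and at 200 to 1000 CPM Pf4 were added after seeing the data. No paired analysis was possible because each group is 1 library of pooled mice. With 101 control members, 10 of them with at least 30 Pf4 UMIs, counting error is wide for low genes.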

Other observations

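Pf4 RNA was also found outside the KLS libraries. The control stromal library held 97 Pf4 UMIs in 3 of 672 barcodes (51.8 CPM), 95 of them in 1 barcode, and 2 of the 3 barcodes also occurred in a KLS library. The STAT5 KO stromal library held 0 Pf4 UMIs in 425 barcodes, which allows up to 2.36 CPM.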
